A study of Mus musculus with 4 samples.

Results

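The smooth muscle actin and contractile genes described here are Acta2, Actg2, Actc1, Tagln, Cnn1, Cnn2, Myl9, Tpm1, Tpm2 and Thbs1. They were followed in P19 cells, a mouse embryonal carcinoma line that takes neural fates when aggregated in retinoic acid. Members were all probe sets whose single annotated symbol is one of these 10 genes, which gave 17 of the 22690 probe sets on the array. A further probe set annotated to both Pald1 and Thbs1 was left out of the members. The control group was unmodified P19 cells, and the LIN28A group was P19 cells that constitutively express human LIN28A, which binds RNA and keeps let-7 microRNAs from maturing. Both groups were aggregated for 4 days in medium with serum and 5e-07 M all-trans retinoic acid, and each has 2 arrays, numbered 1 and 2 in the labels. What drives the transgene, and whether the expressing line is a single clone, is not stated by the labels.

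The contractile apparatus of smooth muscle, and the stress fibres of many other cells, are built from actin filaments and non-sarcomeric myosin. Acta2 and Actg2 encode the smooth muscle actins and Actc1 the cardiac actin, which embryonic smooth muscle and stressed cells can also make. Calponins, transgelin and tropomyosins bind along the filament, and the regulatory myosin light chain sets how strongly myosin pulls on it. Many of these genes are textbook targets of the serum response factor SRF, which binds a DNA element called the CArG box together with actin-sensing coactivators of the myocardin family. Their RNA is therefore read in culture both as a sign of smooth muscle or myofibroblast character and as a sign of cytoskeletal tension.

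RNA was measured on 1-colour Affymetrix arrays, and each value below is the linear intensity that the authors deposited, unless it is named as a log2 difference. Log2 differences are LIN28A minus control on log2(intensity + 16), a scale that understates the change of low genes. The arrays resembled each other more by number than by cell line, with Pearson's r across tested probe sets of 0.97 for either number, while the control pair gave 0.93 and the LIN28A pair 0.94. Array medians ran from 29 to 38.6, and 35.8% to 42.3% of probe sets read under 16. Signal for 18S ribosomal RNA was 677 in control 1, 136 in LIN28A 1 and 9.20 and 11.3 in the number 2 arrays. The beta-actin 3' to 5' signal ratio was highest in control 1, at 4.71, against 2.76 to 3.37 in the other arrays. For this reason each comparison is also given within number 1 and within number 2, where the lines share a number and 1 array stands on each side. The labels do not say that the arrays came from separate cultures, so a p-value measures only the spread between these arrays.

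The 250 bases upstream of the annotated start were read from RefSeq's GRCm38.p6 table, in which 7 of the 10 genes matched (all but Actg2, Tagln and Thbs1). These upstream bases are printed for the genes that lay highest in LIN28A cells and for Actc1, because the CArG box links many contractile genes to SRF. Capitals of 10 letters mark a CArG box or a CArG-like run, in which a single core base is neither adenine nor thymine, and capitals of 6 letters mark GGAATG, which is CATTCC on the opposite strand, an element known to bind TEAD factors.
Acta2, chr19:34255374-34255623, strand minus: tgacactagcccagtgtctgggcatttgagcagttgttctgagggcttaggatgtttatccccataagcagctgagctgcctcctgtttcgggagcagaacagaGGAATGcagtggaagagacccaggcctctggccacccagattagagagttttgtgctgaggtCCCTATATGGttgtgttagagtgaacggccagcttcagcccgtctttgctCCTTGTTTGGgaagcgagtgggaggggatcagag
Cnn2, chr10:79988350-79988599, strand plus: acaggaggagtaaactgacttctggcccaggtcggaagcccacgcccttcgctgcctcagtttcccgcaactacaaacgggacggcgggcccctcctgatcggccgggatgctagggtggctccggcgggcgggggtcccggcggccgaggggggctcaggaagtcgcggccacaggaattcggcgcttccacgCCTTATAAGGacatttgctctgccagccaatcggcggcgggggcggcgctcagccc
Myl9, chr2:156775214-156775463, strand plus: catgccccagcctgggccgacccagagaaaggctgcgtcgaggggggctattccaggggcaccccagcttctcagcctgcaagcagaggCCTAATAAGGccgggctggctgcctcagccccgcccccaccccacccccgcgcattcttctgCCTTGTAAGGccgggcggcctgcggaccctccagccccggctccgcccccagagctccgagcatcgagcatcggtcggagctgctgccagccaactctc
Tpm1, chr9:67049214-67049463, strand minus: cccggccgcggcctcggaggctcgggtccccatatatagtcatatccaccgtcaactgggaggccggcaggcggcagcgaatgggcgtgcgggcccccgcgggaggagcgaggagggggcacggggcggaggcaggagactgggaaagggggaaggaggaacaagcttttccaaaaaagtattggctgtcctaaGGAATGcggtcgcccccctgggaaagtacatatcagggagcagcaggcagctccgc
Actc1, chr2:114052876-114053125, strand minus: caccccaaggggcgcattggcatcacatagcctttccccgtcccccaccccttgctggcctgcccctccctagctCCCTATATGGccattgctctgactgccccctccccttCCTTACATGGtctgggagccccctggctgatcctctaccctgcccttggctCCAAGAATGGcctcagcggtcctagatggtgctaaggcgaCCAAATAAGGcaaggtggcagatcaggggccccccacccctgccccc

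The searched window held an exact CArG box in Actc1 (CCAAATAAGG), Cnn2 (CCTTATAAGG) and Myl9 (CCTAATAAGG). In Acta2 both matches were CArG-like (CCCTATATGG and CCTTGTTTGG), Actc1 had 3 more CArG-like runs and Myl9 had 1. Acta2 and Tpm1 each held 1 GGAATG, and Cnn1 and Tpm2 held none of these letters in the window. Both strands were searched; the CArG pattern is its own reverse complement, and no match shown overlaps another. Of 32851 promoters of the same length in the table, 1.47% held an exact CArG box, 8.59% either form and 12.6% CATTCC or GGAATG. A match describes the letters and not a bound site.

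Acta2, Cnn2, Myl9 and Tpm1 read higher in both LIN28A arrays than in both control arrays, by 0.69 to 0.91 on the log2 scale, while Tpm2 and Thbs1 differed little or inconsistently between the lines. With each of the 10 genes taken at its brightest probe set and no filter, all 10 log2 differences lay above 0, against 40.1% of 12393 genes taken the same way. In 6 of the 10 the lower LIN28A array exceeded the higher control array, against 10.0% of all genes, and the reverse order was seen in 0, against 18.3%. Within both numbers LIN28A lay above control for 8 of the 10, against 21.6% of all genes, and below for 0, against 33.7%. The other two, Actc1 and Thbs1, lay lower in number 1 and higher in number 2. Of the 6 genes, Actg2 and Cnn1 read under 6 on every array, so their order carries little. Tagln, among the 8, read under 16 on every array. Over all 17 member probe sets, 15 log2 differences lay above 0, and 7 had both LIN28A arrays above both controls. That order held for 10.0% of the 15838 tested probe sets. Within both numbers 10 of the 17 lay higher, against 24.2%, and 1, of Tpm2, lay lower, against 33.3%. Those shares leave out untested probe sets, while 3 of the 17 were not tested.

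The median of the genes was larger within number 2, and so was the median over all genes. Over the 10 genes the median log2 difference was 0.22 within number 1 and 0.76 within number 2, and 0.41 for the average of both. Over the 8 tested genes, without Actg2 and Cnn1, it was 0.12 within number 1 and 0.81 within number 2. Over all 8930 genes at their brightest tested probe set the medians were -0.08 within number 1 and 0.01 within number 2. Over all 15838 tested probe sets they were -0.09 and -0.0024. Whether the lines differ more in number 2 than in number 1 could not be tested, since each number has 1 array per line.

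**Figure D1:**
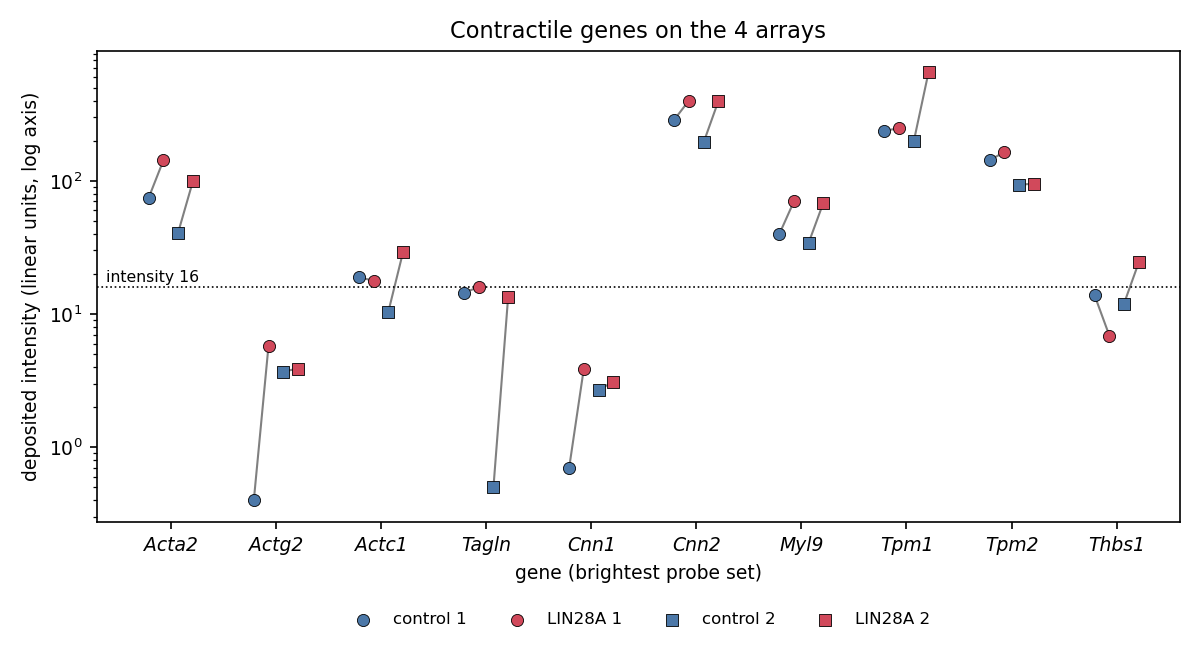
Deposited intensity (linear units on a log axis) of the 10 genes at their brightest probe set, with control arrays in blue, LIN28A arrays in red, number 1 as circles and number 2 as squares. Grey lines join arrays of the same number and the dotted line marks 16. Acta2, Cnn2, Myl9 and Tpm1 have both red points above both blue points, and Actg2 and Cnn1 lie under 6 throughout.

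In limma's test across all tested probe sets, none of the members passed at an adjusted p under 0.05. A filter on the mean over the 4 arrays kept 14 of the 17 member probe sets and 8 of the 10 genes, leaving out Actg2, Cnn1 and the dimmer Acta2 probe set. Tagln passed it only through its LIN28A arrays, which averaged 14.7. Its control arrays averaged 7.50, under the cut of about 8.04. The test called 0 of 15838 probe sets higher (0%) and 0 lower (0%), and with the replicate number as a block it called 1 higher and 0 lower, which was not a contractile gene. At an unadjusted p under 0.05 limma called 70 probe sets higher (0.442%) and 192 lower (1.21%). Among the members, those past the unadjusted threshold were Acta2 and Myl9, both higher, and none was lower. With the filter at the 50th percentile, or without control 2, no member passed even that threshold. Every member's adjusted p in limma rounded to 1.0.

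Among the actins, Acta2, the alpha actin of smooth muscle, read 74.7 in control 1, 40.9 in control 2, 142.5 in LIN28A 1 and 98.9 in LIN28A 2. The groups did not overlap, and each LIN28A array read about as far above its own control as the other. The ratio of LIN28A to control was 1.91 in number 1 and 2.42 in number 2. The group values were 57.8 ± 23.9 and 121 ± 30.8 (SD, n = 2), with a log2 difference of 0.91 ± 0.36 SE that was 0.57 without control 2. This probe set, 1416454_s_at, is of a type whose probes can match several transcripts, so near-identical actins may add to it. The dimmer Acta2 probe set, 1456658_at, read 12.4 and 0.20 in control cells against 4.80 and 0.50 with LIN28A, under 16 on every array, with the lines overlapping. In bulk RNA such as this, more cells that express a gene and more of its RNA per cell cannot be told apart.

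Actc1, the cardiac alpha actin, read 18.9 and 10.4 in control cells against 17.8 and 29.2 with LIN28A. The arrays overlapped, with LIN28A 2 alone standing above the rest. The log2 difference was -0.05 in number 1 and 0.78 in number 2. Actg2, the gamma actin of visceral smooth muscle, read 0.40 and 3.70 in control cells against 5.80 and 3.90 with LIN28A, near the bottom of the scale on all arrays. The cytoplasmic actins did not follow Acta2. Actb read 7288 and 2936 in control cells against 4612 and 2069 with LIN28A, with log2 differences of -0.66 and -0.50 within numbers 1 and 2, and Actg1 gave -0.68 and -0.16. Their groups overlapped, because number 1 read above number 2 in both lines.

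Of the actin-binding members, Cnn2, the calponin of non-muscle and smooth muscle cells, read 287 and 194 in control cells against 400.1 and 396 with LIN28A. Both LIN28A arrays were close to each other and above both controls, so the spread lay in the control pair. The group values were 241 ± 65.6 and 398 ± 2.76 (SD, n = 2). Its log2 difference was 0.71 ± 0.31 SE, 0.46 and 0.97 within the numbers, and it was 0.45 when control 2 was left out. Tagln, transgelin, an early smooth muscle marker, read 14.5 and 0.50 in control cells against 15.9 and 13.5 with LIN28A. Here control 2 stood alone at a low value and the other arrays were alike, so the log2 difference of 0.45 came from number 2 (0.84) and hardly from number 1 (0.06). Cnn1, the calponin of mature smooth muscle, read 0.70 and 2.70 in control cells against 3.90 and 3.10 with LIN28A.

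Myl9, the regulatory light chain of smooth muscle and non-muscle myosin, had the smallest standard error of the tested members. It read 39.8 and 34.4 in control cells against 70.3 and 68.7 with LIN28A, or 37.1 ± 3.82 and 69.5 ± 1.13 (SD, n = 2). The groups were separated by more than the spread within either, and the ratio was 1.77 in number 1 and 2.0 in number 2. Its log2 difference was 0.69 ± 0.28 SE, with 0.63 and 0.75 within the numbers and 0.62 to 0.76 without any 1 array.

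Tropomyosins lie along the actin filament and control access of myosin to it. Tpm1 has 3 probe sets, and they disagreed on where the lines differ. The brightest, 1423049_a_at, read 238 and 199 in control cells against 248 and 653 with LIN28A. LIN28A 2 stood alone, and the remaining arrays lay close together. The second, 1423721_at, had the same pattern at 201 and 117 in control cells against 231 and 612 with LIN28A, with a log2 difference of 0.19 in number 1 and 2.24 in number 2. The third, 1456623_at, read 54.1 and 27.5 in control cells against 133 and 46.3 with LIN28A. There the larger difference was in number 1 (1.08) and not in number 2 (0.52), and the arrays overlapped. At the brightest probe set the log2 difference of 0.85 ± 0.48 SE was 0.18 without LIN28A 2 and 1.52 without LIN28A 1, so its size rests on LIN28A 2. Tpm1 makes many isoforms by alternative promoters and splicing, and which of them each probe set reads was not analysed here.

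Tpm2, the beta tropomyosin, did not separate the lines at any of its 4 probe sets. The brightest, 1419738_a_at, read 143 and 93.2 in control cells against 164 and 95.3 with LIN28A, a pattern that follows the number and not the line. Its log2 difference was 0.10 ± 0.38 SE, and those of the other probe sets were -0.02, 0.10 and 0.12. Without LIN28A 1 it was -0.24 and without control 2 -0.17.

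Thbs1 encodes thrombospondin 1, a secreted glycoprotein that can activate latent TGF-beta and binds CD47 and integrins. Its brighter probe set, 1460302_at, read 13.8 and 12.0 in control cells against 6.90 and 24.4 with LIN28A. LIN28A 1 was the lowest and LIN28A 2 the highest of the arrays, with log2 differences of -0.38 and 0.53 within the numbers. The other Thbs1 probe set read 4.10 to 13.9 over the arrays, with differences of -0.12 and 0.18. The probe set shared with Pald1 gave the same signs, at -0.11 and 0.53.

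**Figure D2:**
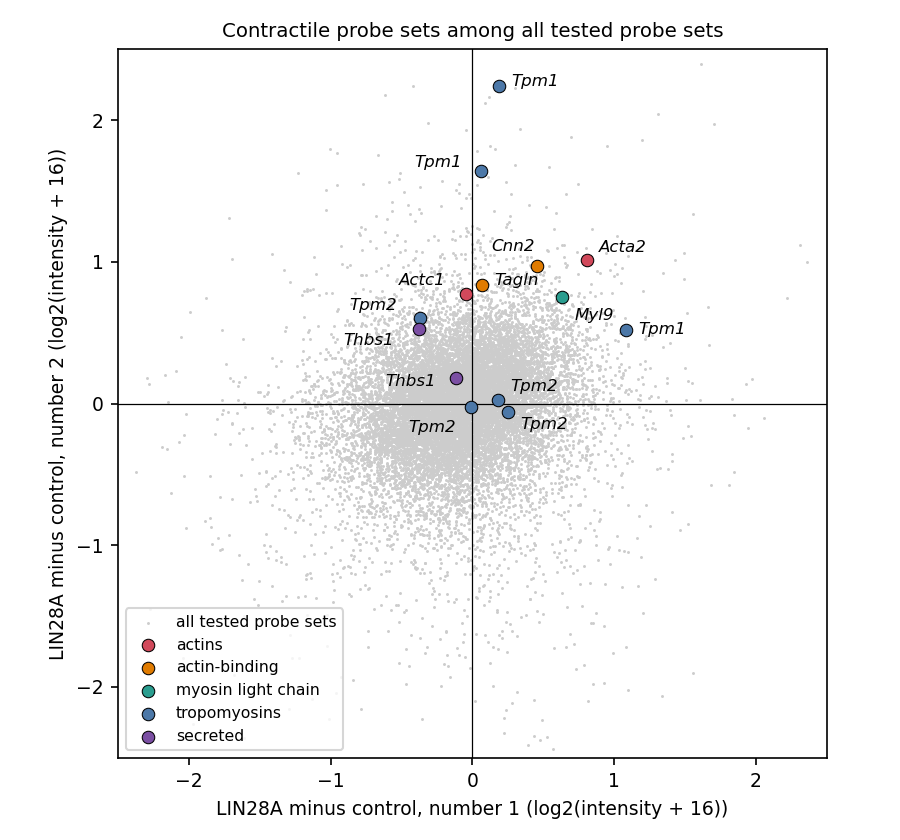
Log2 difference (log2(intensity + 16)) of LIN28A minus control within number 1 (horizontal) and within number 2 (vertical) for all tested probe sets in grey and the 14 tested contractile probe sets in colour by role. Of the 15838 tested probe sets 29 lie beyond the axes. Acta2, Cnn2 and Myl9 lie to the upper right of the centre, and 2 Tpm1 probe sets lie near the vertical axis at 1.64 and 2.24.

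Of 31 other contractile and actin-binding genes, 28 were on the array and 25 passed the filter. No gene of this list passed limma's test, 17 of the 25 log2 differences lay above 0, against 45.1% of 8930 genes, and the median was 0.13 (-0.03 within number 1 and 0.31 within number 2), against -0.04 over those genes. Both LIN28A arrays lay above both controls for 5 genes, against 11.5% of all genes, and below for 2, against 16.6%. After median centring those shares over all genes were 19.9% and 9.03%. The genes above were Cald1, Myh9, Flna, Actn4 and Tpm3. Cald1, caldesmon, which binds actin and calmodulin, read 304 and 291 in control cells against 492 and 590.4 with LIN28A. Its groups were well apart in both numbers, with a log2 difference of 0.82 ± 0.28 SE, 0.67 in number 1 and 0.98 in number 2. A dimmer Cald1 probe set overlapped at 69.2 and 25.0 against 130.3 and 25.3, with 0.01 within number 2. Myh9, the heavy chain of non-muscle myosin IIA that pairs with Myl9 light chains, read 311 and 308 in control cells against 492 and 479 with LIN28A. That is a separation as clean as that of Myl9, with 0.63 and 0.61 within the numbers, although 2 of its other 3 probe sets overlapped between the lines. Flna, filamin A, which crosslinks actin, read 319 and 512.5 against 568 and 716, and its log2 difference of 0.64 was 0.31 without control 1. On the other side stood Mylk, the kinase that phosphorylates myosin light chains in smooth muscle, at 30.6 and 28.5 in control cells against 15.8 and 20.0 with LIN28A, and Tagln2, at 70.3 and 56.6 against 43.5 and 43.7. The members and their partners thus include both directions, with the light chain and its kinase on opposite sides of 0.

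Among regulators of these genes, none of those named here passed limma's test. Srf read 112 and 76.1 in control cells against 159 and 154 with LIN28A, without overlap and with 0.44 and 0.89 within the numbers. Its other probe set read 63.9 and 18.8 against 46.5 and 36.8 and overlapped. Tead2, a TEAD factor of neural progenitors and embryonic stem cells, read 389 and 443 against 561 and 605, and the coactivator gene Mrtfa 75.4 and 89.8 against 93.1 and 102. Myocd, myocardin, the coactivator that drives the mature smooth muscle programme, read 31.6 in control 1 and 5.50, 5.30 and 4.20 in control 2, LIN28A 1 and LIN28A 2. Its difference therefore rests on control 1. Tead1 also lay lower in both arrays, at 12.1 and 17.5 against 6.50 and 8.30. Myocd passed the filter only through control 1, and Tead1 only through its control arrays. Their LIN28A arrays averaged 4.75 and 7.4, under the filter's cut.

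**Figure D3:**
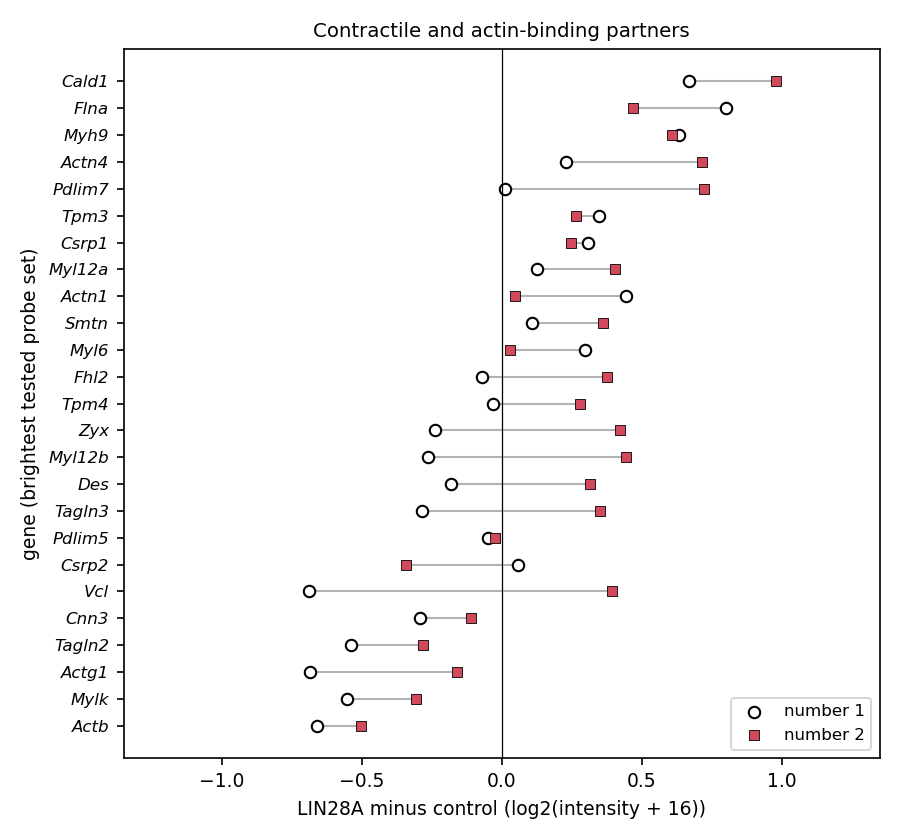
Log2 differences (log2(intensity + 16), LIN28A minus control) within number 1 (open circles) and number 2 (red squares) for the 25 tested contractile partners, each at its brightest tested probe set and ordered by the average. Cald1, Flna and Myh9 lie to the right of 0 in both numbers, and Actb, Mylk and Actg1 to the left.

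Early targets of SRF and YAP gave 1 gene above in both arrays (11.5% of all genes) and 1 below (16.6%) among 8 tested of 12. Their median log2 difference was 0.10 (-0.23 within number 1 and 0.43 within number 2), against -0.04 over all genes. Egr1, an immediate early SRF target, read 45.7 and 36.3 in control cells against 72.5 and 121 with LIN28A, with 0.52 and 1.39 within the numbers. Fos, another such target, read 55.5 and 17.0 against 17.9 and 21.7 and overlapped, and Junb lay lower at 16.3 and 9.40 against 5.70 and 5.40. The early targets thus lay on both sides of 0. Junb, the 1 gene below, passed the filter only through its control arrays. Its LIN28A arrays averaged 5.55, under the filter's cut, so the filter helped to place it in that count. The TGF-beta pathway is an inducer of Acta2 in many cells. Of its 13 tested genes, 2 lay above in both arrays (11.5% of all genes) and 1 below (16.6%). The median was 0.14, with -0.15 within number 1 and 0.48 within number 2. Tgfb3, a ligand, read 14.0 and 9.20 against 18.5 and 29.1, and the inhibitory Smad6 read 42.1 and 44.8 against 52.9 and 131. The signal transducer Smad3, the 1 gene below, read 14.8 and 33.2 against 9.20 and 4.80. Smad3 too passed the filter only through its control arrays. Its LIN28A arrays averaged 7, under the filter's cut, so the filter helped to place it in that count. Among the thrombospondin receptors and relatives, 2 of 13 lay above, Itga5 and Itgav, and 0 below, against the same 11.5% and 16.6%. Their median was 0.08, with -0.08 within number 1 and 0.26 within number 2. Itgav, the integrin alpha V subunit, read 227 and 138 against 242 and 297, a difference seen mainly in number 2 (1.02, against 0.09 in number 1). Sdc1, a syndecan, read 178 and 135 against 296 and 175, and Cd47, the thrombospondin receptor, 213 and 177 against 139 and 187. Both overlapped at these probe sets, while 2 dimmer probe sets of Sdc1 lay above in both LIN28A arrays (181 and 144 against 202 and 189, and 17.5 and 23.2 against 31.2 and 38.0). No gene of these lists passed limma's test.

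The arrays were also read for the cell types that express the contractile genes. Among 7 smooth muscle markers, Myh11, Lmod1 and Des read at most 12.9 on every array. The list's summed intensity was 427 and 355 in control cells against 565 and 661 with LIN28A. Most of it came from Cald1, which non-muscle cells also express and which read 304 and 291 against 492 and 590.4. Of the 5 tested genes, 1 (Cald1) lay above in both arrays, against 11.5% of all genes. Below lay 2 (Myocd and Mylk), against 16.6%. Of these, Myocd passed the filter only through control 1, at 31.6. Its LIN28A arrays averaged 4.75, under the filter's cut, so the filter helped to place it in this count. Smtn, smoothelin, a marker of contractile smooth muscle, read 36.8 and 23.0 against 40.9 and 34.1 and overlapped, with 0.11 and 0.36 within the numbers. For cardiac muscle, 8 of 9 markers read under 16 on every array, the exception being Nkx2-5 (26.3 and 20.2 against 9.10 and 27.1), and their sum was 52.1 to 61.3 in control and 56.8 to 64.2 in LIN28A cells. For skeletal muscle, 5 of 6 markers read under 16 throughout, with Myog at 25.4 in control 1 and 0.60, 2.90 and 2.50 in the others. The endothelial sum was 23.7 to 36.5 in control and 28.3 to 29.8 in LIN28A cells, and 3 of its 5 genes read at most 6.50.

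Markers of fibroblasts and endoderm differed most in number 2. The summed fibroblast intensity of 8 genes was 245 and 114 in control cells against 192 and 424 with LIN28A, lower in LIN28A cells in number 1 and higher in number 2. Of these genes, 4 read under 16 on every array (Col1a1, Pdgfrb, Lum and Postn). Col3a1, a fibrillar collagen, read 48.3 and 10.9 in control cells against 70.2 and 148 with LIN28A, and Dcn, decorin, 103 and 41.8 against 45.3 and 152.5. The endoderm sum of 8 genes was 311 and 467 in control cells against 281 and 678 with LIN28A, with Sox17, Foxa2, Afp and Ttr at most 10.9 on every array and Lamb1, a laminin subunit, at 83.8 and 45.6 against 107 and 273. Lama1, another laminin subunit, carried most of the sum in control 2 and read 167 and 383 against 127 and 336, with -0.35 and -0.18 within the numbers. LIN28A 2 was thus the highest array for Col3a1, Dcn, Lamb1, both brighter Tpm1 probe sets, Actc1 and Thbs1, and not for Acta2, Cnn2 or Myl9. Whether fibroblasts or endoderm cells were present, and their part in the Tpm1, Actc1 and Thbs1 values, was not tested. Pou5f1, the Oct4 gene of undifferentiated cells, read 30.3 and 374 in control cells against 28.7 and 775 with LIN28A. The 6 pluripotency markers summed to 156 and 399 against 69.6 and 852, and Pou5f1 carried most of the number 2 sums. Nanog read 70.8 and 5.70 against 10.4 and 37.8, and Utf1 5.50 and 3.80 against 16.4 and 16.5. Of the 4 tested, 1 (Utf1) lay above in both arrays (11.5% of all genes) and 0 below (16.6%). Utf1 passed the filter only through its LIN28A arrays, which averaged 16.45. Its control arrays averaged 4.65, under the filter's cut, so the filter helped to place it in this count. Neural progenitor markers summed to 3069 and 4619 in control cells against 2943 and 2938.5 with LIN28A. Most of the gap in number 2 came from Fabp7, which read 565 and 1955 against 613 and 735. Sox2 read 1902 and 1697 against 1557 and 1295. It was the 1 gene of the 6 below in both arrays (16.6% of all genes), with 0 above (11.5%). Pax6 and Nes lay higher with LIN28A in number 1 (0.90 and 0.72) and lower in number 2 (-0.76 and -0.53). The neuronal sum was 2207 and 3541 against 1243 and 2660, lower in LIN28A cells within each number. Of its 7 genes, 2 lay below in both arrays (16.6% of all genes) and 0 above (11.5%). The 2 below were Elavl4, at 232 and 453 against 130 and 190, and Stmn2, at 821 and 902 against 216 and 627. The dimmer probe sets of both genes overlapped between the lines, though each lay lower in LIN28A cells within each number. The part of the neuronal genes in the contractile values was not tested either.

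**Figure D4:**
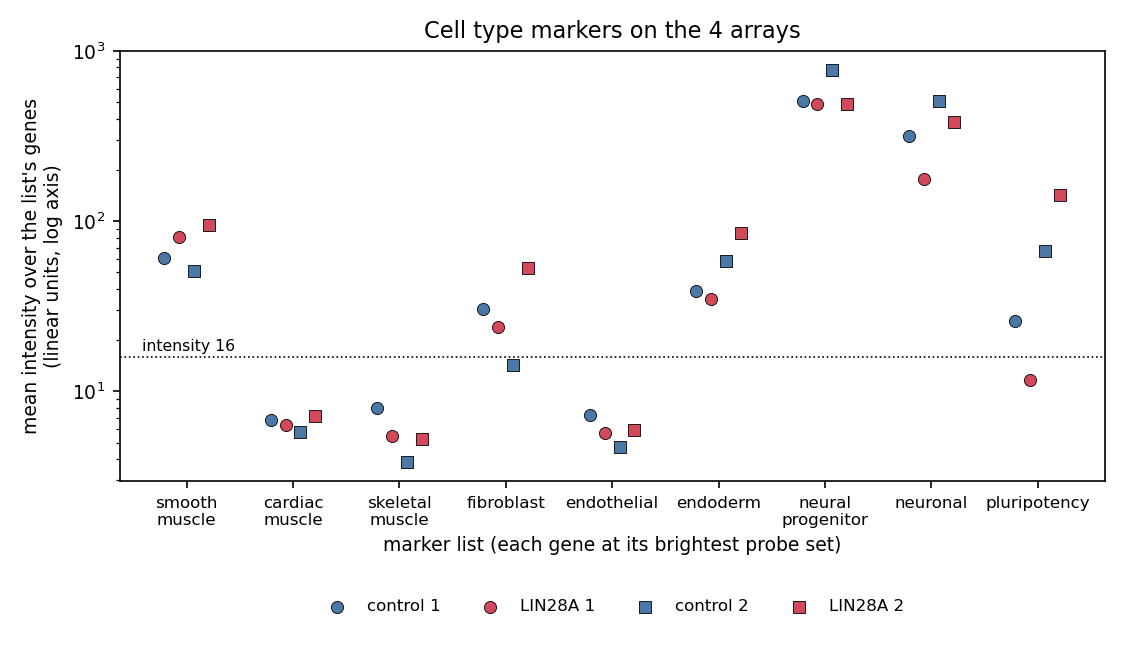
Mean intensity per gene (linear units on a log axis) of 9 marker lists on the 4 arrays, with control in blue, LIN28A in red, number 1 as circles, number 2 as squares and a dotted line at 16. Cardiac, skeletal and endothelial markers average 3.87 to 8.03, while the fibroblast list ranges from 14.2 in control 2 to 53.0 in LIN28A 2.

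The genes most like Acta2 over the 4 arrays were found by the root mean square difference of log2 values, after subtracting each probe set's mean, among 8929 other genes. They were Dut (0.08), Dnmt3a (0.10), Srsf3 (0.11), Dna2 (0.11) and Jpt1 (0.13). Dut, which encodes the enzyme that keeps uracil out of DNA, read 523 and 314 in control cells against 826 and 700.2 with LIN28A, and the DNA methyltransferase gene Dnmt3a 87.2 and 54.3 against 205 and 129. No contractile gene was among them. Each gene was ranked at its tested probe set closest to Acta2, and not at its brightest. Cnn2 ranked 41 of 8929 (0.19), Myl9 165 (0.27), Tagln 181 (0.27) and Tpm1 210 (0.28), while Tpm2 ranked 1090, Actc1 1255 and Thbs1 5732. The rank of Tpm1 rests on its dimmest probe set, 1456623_at, and its brighter probe sets lay further from Acta2. With 4 arrays, this likeness only describes these arrays.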

How the data were processed

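The authors deposited 1 table of probe set intensity values on a linear scale for 4 arrays. Per the labels' protocols, cDNA was made with an oligo(dT) primer and biotin-labelled cRNA by in vitro transcription. No source used here names the software that summarised and scaled the probes. After trimming, the array means were 150.1, so the values were taken as scaled between arrays. Genes were named by the platform annotation, which gives 1 symbol to 20380 probe sets and several to 691. The 64 control probe sets were left out of tests.

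Values became log2(value + 16). Probe sets with a mean under the 30th percentile (about 8.04) were left out, which kept 15838. Lines were compared with limma 3.58.1 in R 4.3.3 (lmFit, eBayes, no block), with Benjamini-Hochberg adjustment at 0.05, and the code was tested on simulated data. For 2 arrays against 2, the smallest two-sided exact permutation p is 0.333, so none is given. A gene was taken at its brightest probe set, except in the likeness to Acta2, where its closest tested probe set was used. The number of arrays limits precision, and the table holds no detection calls.

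The members and lists were chosen with earlier results of these data known. The genes named are all members, up to 3 genes of each other list with the smallest unadjusted p, and the 5 most like Acta2; others singled out were chosen after their values were seen. Alternatives covered normalization, pseudocount, filter, replicate block and leaving out each array. The summary of 1 list of regulators is not reported here.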

Additional observations from a re-analysis of the deposited data

How the results depend on the processing

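The differences of Acta2, Cnn2, Myl9, Tpm1, Tagln and Actc1 kept their sign under every alternative run, with ranges of 0.57 to 1.25, 0.45 to 0.98, 0.40 to 0.89, 0.18 to 1.52, 0.0083 to 1.70 and 0.15 to 0.66. Without 1 array Thbs1 ranged from -0.34 to 0.48, and Tpm2 ranged from -0.24 to 0.45. The median over the 8 tested genes, 0.57, was 0.28 with pseudocount 64, 0.82 with pseudocount 1, 0.70 with median centring, 0.67 with quantile normalization and from 0.31 to 0.83 when an array was left out. Tagln, which passed the filter only through its LIN28A arrays, is among these 8 genes and among the 6 counted under quantile normalization below. Median centring moved the median of all probe sets from -0.05 to 0.08. Of the 8 tested genes 4 lay above in both arrays (11.5% of all genes), 5 with median centring (19.9%), 6 with quantile normalization (14.5%) and from 4 to 7 when an array was left out (7 without control replicate 1; 24.5% to 33.3% of all genes), so the share over all genes shifts too. Leaving out 1 array unbalances the numbers between the lines, and the lone array is assumed to vary like the others.

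Deviations from the group mean correlated at r = 0.62 between arrays of the same number, but the labels give them no more than a number in common. With the replicate block limma called 1 probe set higher and 0 lower over all probe sets, and the smallest adjusted p of a member was 0.44. At an unadjusted p under 0.05 there were then 468 higher and 890 lower. Every other alternative called 0 in each direction. Without the block, 51 to 167 probe sets lay higher and 89 to 362 lower at that unadjusted threshold.

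Among genes named from the other lists, the sign turned for Ryr2 under median centring (0.064) and quantile normalization (0.16). Without 1 array it turned for Col1a2 (-0.098 to 0.82), Dcn (-0.43 to 1.02), Dppa5a (-0.93 to 0.14), Fabp7 (-1.52 to 0.24), Fos (-1.0 to 0.12), Gata6 (-0.067 to 0.56), Kdr (-0.093 to 0.28), Myod1 (-0.17 to 0.31), Nkx2-5 (-0.64 to 0.14), Pou5f1 (-1.59 to 2.56), Ryr2 (-0.16 to 0.032), Sox1 (-0.78 to 0.16) and Tek (-0.36 to 0.42). The cause was not tested.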
